A study of Mus musculus with 6 samples.

Results

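Retinoic acid metabolism and signalling was followed in mouse lung through 8 genes: Cyp26b1, Aldh1a2, Aldh1a3, Rdh10, Rara, Rarb, Rarg and Stra6. The members are all probe sets of the array whose single gene symbol is one of these, which gave 12 of 45101 probe sets, for 8 of the 18194 genes named there: 3 for Aldh1a3, 2 each for Rdh10 and Rarg, and 1 for each other gene. The gene group was chosen by an earlier result on these arrays, in which Cyp26b1 had one of the larger differences between R899X mice with normal pressure and controls. The values of Cyp26b1 are therefore a description in every comparison, since all of them share arrays with the one that chose it, and no test is given for it. RNA came from whole lung homogenate of 6 female mice of the FVB/N strain, in 3 groups of 2, and each mouse was hybridised to its own Affymetrix Mouse Genome 430 2.0 array. The sex of 1 control rests on the series' design text, since its own label does not give it. Control mice carried the SM22-rtTA transgene alone, a transactivator switched on by doxycycline and driven by a smooth muscle promoter. Both R899X groups were heterozygous for SM22-rtTA and for TetO7-BMPR2-R899X, which places a truncated form of the BMP receptor BMPR2 under that transactivator. The R899X groups differ in right ventricular systolic pressure (RVSP) when killed, which was near normal in one and substantially elevated in the other. All mice, controls included, were fed doxycycline for 9 weeks from an age of 4 weeks and were killed at 13 weeks. The transgene is thus directed to smooth muscle while RNA was taken from the whole lung, where fewer cells of a type and less RNA per cell cannot be told apart.

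Retinoic acid is made from vitamin A in steps. STRA6 is a membrane receptor that takes up retinol from its plasma carrier, RDH10 oxidises retinol to retinaldehyde, and ALDH1A2 and ALDH1A3 oxidise retinaldehyde to retinoic acid. CYP26B1 is a cytochrome P450 that breaks retinoic acid down. The receptors RARA, RARB and RARG bind retinoic acid and act as partners of RXR receptors on DNA, at direct repeats of a short half-site. Retinoic acid signalling is known for its part in lung branching and in the formation of alveoli, and Rarb and Cyp26a1 are textbook targets of the receptors.

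Sequence before the start sites of Rarb and Cyp26b1 is shown because, of the members that passed the filter on dim probe sets, these stood highest above control in the R899X mice, and the receptors' half-sites were sought in it. Sequences are from RefSeq promoter windows of GRCm38.p6, which cover 250 bases before and 50 after a start site. Windows were given for 6 of the 8 genes, 13 in all. They were searched on both strands for 2 copies of the half-site AGGTCA, or of its variant GGGTCA, or of its variant AGTTCA, or of its variant GGTTCA, or any pair of these, in direct repeat with a gap of 1, 2 or 5 bases. Of the 13 windows 1 held a match, that of Rarb, as did 193 of all 32851 windows (0.588%). Matches with the gap of 5 bases were in 32 windows (0.0974%). The stretch before the Rarb start site, at chr14:16575477-16575726 on the minus strand, is given first, with the matching half-sites in capitals. The annotated Rarb gene spans chr14:16430839-17082331, so this stretch lies inside the gene, before a start site internal to it. The repeat lies from position -53 to -37 before the start site. The stretch for Cyp26b1 is at chr6:84593909-84594060 on the minus strand. It runs from position -250 to -99, stops where the annotated gene begins, and held no match, as did the rest of its window.

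Rarb: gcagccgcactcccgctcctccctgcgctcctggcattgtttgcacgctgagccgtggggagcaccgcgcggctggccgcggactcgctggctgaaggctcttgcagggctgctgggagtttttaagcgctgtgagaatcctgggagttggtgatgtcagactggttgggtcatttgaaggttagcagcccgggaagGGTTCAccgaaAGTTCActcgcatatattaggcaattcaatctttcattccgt
Cyp26b1: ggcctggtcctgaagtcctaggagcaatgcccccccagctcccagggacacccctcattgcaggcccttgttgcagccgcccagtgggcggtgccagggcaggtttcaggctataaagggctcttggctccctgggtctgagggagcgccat

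Among 48 other genes of the retinoid lists with 62 windows, 2 windows held a match, those of Cyp26a1 and Bco1. The match of Cyp26a1, the close relative of Cyp26b1, is at chr19:37697776-37697792, has the same gap of 5 bases as that of Rarb and lies on the strand opposite to transcription. It is written on that strand, with the half-sites in capitals, for comparison with Rarb.

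Rarb match: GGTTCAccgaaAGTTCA
Cyp26a1 match: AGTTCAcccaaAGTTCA

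A match is a description of the letters and was not tested as a binding site.

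Array medians ranged from 128 to 141 in intensity. Control 1 and R899X normal RVSP 1 stood apart from the other 4 arrays, with mean distances to the rest of 0.496 and 0.492 (root mean square, log2) against 0.420 at most. Their 3'/5' intensity ratios of the beta-actin control probe sets, a measure of RNA length, were 1.89 and 1.64 against 1.27 to 1.45. Of 12 member probe sets 7 passed the filter that left out the lowest 40% of probe sets by mean, at an intensity of about 74.9. The nearest members on either side of it were Rarb, with a mean of 318, and Rara, with 58.7.

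The breakdown enzyme Cyp26b1 (probe set 1460011_at) was the only member that passed the filter and separated all 3 groups. It was chosen for its difference, and the share of all probe sets that separate all 3 groups was not counted. By pairs of groups, 14.4% of all probe sets kept were higher without overlap in normal RVSP than in control. The share was 19.1% for high RVSP above control and 15.5% for high below normal RVSP. The controls read 329.8 and 581 in intensity, the normal RVSP pair 1111 and 1033, and the high RVSP pair 815 and 659.9. The 3 groups did not overlap: both normal RVSP mice were highest, both high RVSP mice were intermediate and both controls were lowest. Group means were 456 ± 178 (SD, n = 2), 1072 ± 54.7 (SD, n = 2) and 738 ± 109.9 (SD, n = 2). The controls themselves differed by 1.76-fold, while the normal RVSP mice differed by 1.07-fold and the high RVSP mice by 1.24-fold. The lowest R899X array exceeded the highest control by 1.14-fold.

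**Figure D1:**
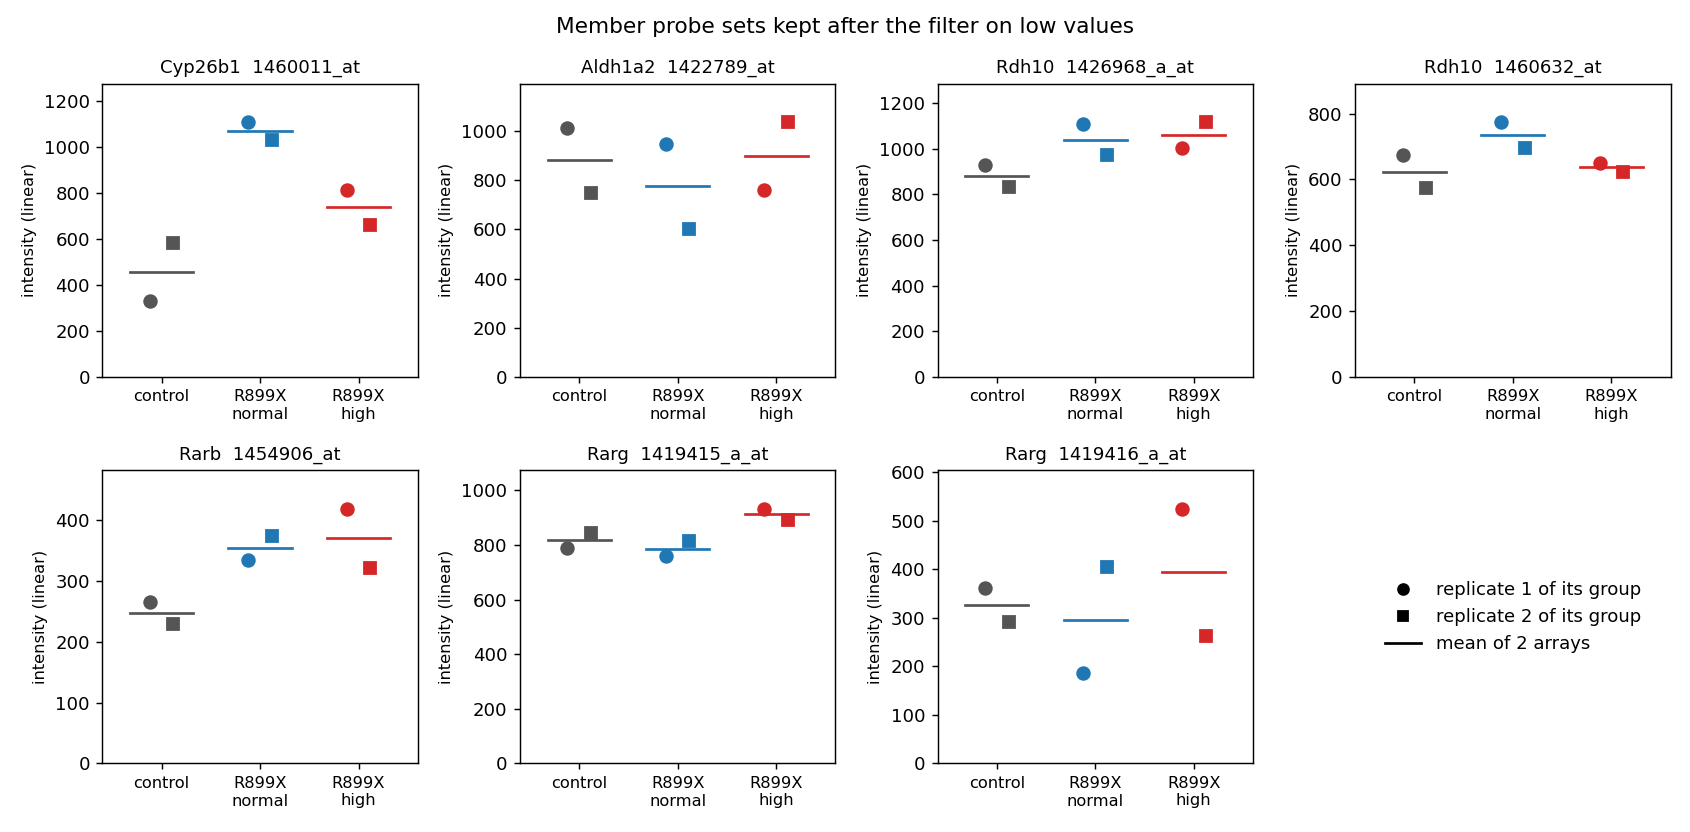
Intensity (linear scale, from 0) of the 7 member probe sets that passed the filter, by group, with 1 point per array and a line at the mean of the 2 arrays. Cyp26b1 separates all 3 groups, from 329.8 and 581 for the controls to 1111 and 1033 for normal RVSP, while in Aldh1a2 and the dimmer Rarg probe set every group overlaps the others.

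On the log2(intensity + 16) scale, which slightly understates differences of dim probe sets, Cyp26b1 stood 1.26 ± 0.27 (limma SE, here and after each later ± not marked SD) above control in the normal RVSP mice. It stood 0.72 ± 0.27 above control in the high RVSP mice, and 0.99 ± 0.23 above control over all R899X mice. Between the R899X groups, the difference of high from normal RVSP was -0.54 ± 0.27. The size depended on which control was used; control 1, the dimmer of them, is also one of the arrays that stood apart. Without control 1 the difference was 0.86 for normal RVSP, 0.33 for high RVSP and 0.60 for all R899X mice. Without control 2 the corresponding values were 1.65, 1.12 and 1.38. The sign stayed positive against control when any 1 array was left out, as it had to where groups do not overlap.

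**Figure D2:**
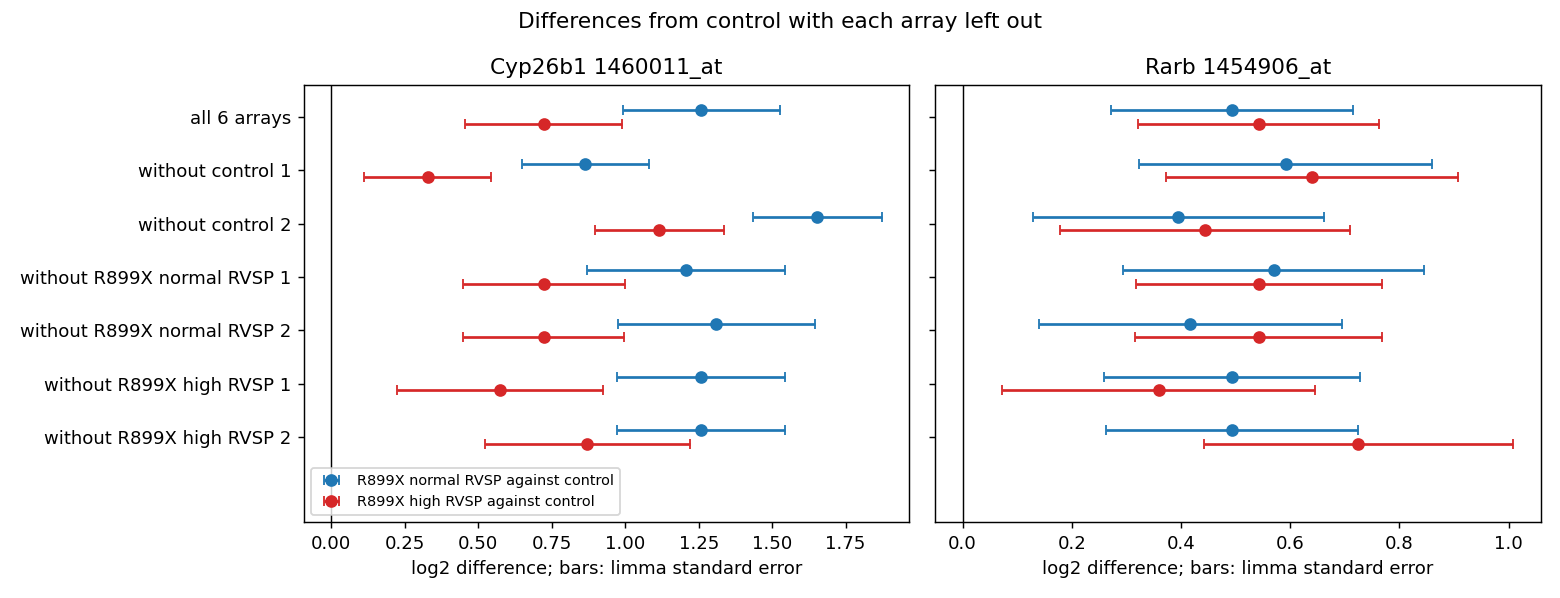
Log2 difference from control (x axis, with limma standard errors as bars) of Cyp26b1 and Rarb with all 6 arrays and with each array left out in turn. For Cyp26b1 the normal RVSP value moves between 0.86 and 1.65 and the high RVSP value between 0.33 and 1.12, both set by which control is left out; for Rarb the values lie between 0.36 and 0.73.

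Markers of smooth muscle and pericytes, smooth muscle being where the transgene is directed, followed part of the same order. All 10 markers were above control in the normal RVSP mice, with a median log2 difference of 0.33. In the high RVSP mice 5 of 10 were above control, with a median of 0.01. All 10 stood below normal RVSP in the high RVSP mice (median -0.27), and all 10 were above control over all R899X mice (median 0.19). Their summed intensity was 22386 to 24048 in the controls, 26480 to 29978 in normal RVSP and 23576 to 24611 in high RVSP, and none of them was at 0. Endothelial markers summed to 53454 to 59858, 55097 to 64265 and 54638 to 59432 in the same order. Those of fibroblasts summed to 68484 to 77961, 67504 to 79441 and 71171 to 73087, so for both lists the groups overlapped. Sums weigh bright genes most, such as Inmt among the fibroblast markers, at 24387 to 33611. Of 12 endothelial markers 8 were above control in normal RVSP (median 0.10) and 5 in high RVSP (median -0.01). Of 10 fibroblast markers 6 and 8 were, with medians of 0.06 and 0.05.

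Among the marker lists, those of airway and fat cells followed the order of Cyp26b1 in most of their members, but not in all sums. Of all 12557 genes, 53.7% were above control in normal RVSP, 46.1% in high RVSP and 42.5% higher in high than in normal RVSP. Of 8 markers of ciliated cells, 8 were above control in normal RVSP (median 0.32) and 7 in high RVSP (median 0.25), and 7 stood below normal RVSP in the high RVSP mice. They summed to 5709 to 8456 in controls, 8474 to 9221 in normal RVSP and 7990 to 8938 in high RVSP, so that only the normal RVSP pair and the controls did not overlap. Of 8 markers of club and secretory cells, 7 were above control in normal RVSP and 6 in high RVSP, and 8 stood below normal RVSP in the high RVSP mice, with sums of 86353 to 102317, 98648 to 104769 and 90307 to 96922. By these sums the high RVSP pair fell within the range of the controls, and the normal RVSP pair overlapped the controls. The 4 adipocyte markers that passed the filter had medians of 0.76 and 0.59 above control, with sums of 487 to 860.3, 819 to 1759 and 851 to 1264. By sum, every group overlapped the others for adipocyte markers. None of these markers was at 0. Other lists ran otherwise: all 9 cardiac muscle markers that passed the filter were below control in high RVSP, with a median of -0.82. The part of cell make-up in the Cyp26b1 values was not tested.

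The genes whose pattern over the 6 arrays was most like that of Cyp26b1 were Ubxn1 (Pearson r = 0.992), Trappc5 (0.991), Ccdc103 (0.990), Gatd3a (0.990) and Fam204a (0.989). Of 22255 named probe sets, 50 had r above 0.95, and with 6 points that share the same arrays such values are a description only. Trappc5 and Fam204a each had another probe set that ran the other way, with r of -0.27 and -0.62. No member was among these genes: the nearest was Rarb, with r = 0.66 to Cyp26b1, followed by the 2 Rdh10 probe sets at 0.48 each, and Aldh1a2 at -0.47. Cyp26a1, the other breakdown enzyme of the list with a probe set on the array, was dim. Its controls read 77.7 and 31.8, the normal RVSP pair 13.9 and 7.92, and the high RVSP pair 26.5 and 36.2. Both normal RVSP values of Cyp26a1 were below both controls, the opposite order to Cyp26b1, but all lay near or under the filter.

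Of the enzymes that make retinoic acid, Rdh10, which catalyses the first step from retinol, was read by 2 probe sets. Probe set 1426968_a_at gave 929 and 831 for control, 1108 and 971 for normal RVSP and 1003 and 1119 for high RVSP. All 4 R899X arrays lay above both controls there, by as little as 1.04-fold between the nearest arrays. The log2 difference over all R899X mice was 0.25 ± 0.15 (limma adjusted p = 0.853), with 0.24 ± 0.17 for normal RVSP (limma adjusted p = 0.987) and 0.26 ± 0.17 for high RVSP (limma adjusted p = 0.876).

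The second Rdh10 probe set, 1460632_at, did not repeat this in the high RVSP mice. It gave 673 and 575 in the controls, 775 and 697 in normal RVSP and 651 and 624 in high RVSP, so that the high RVSP mice fell within the range of the controls. Its difference was 0.24 ± 0.18 for normal RVSP, like that of the first probe set, but 0.03 ± 0.18 for high RVSP (limma adjusted p = 0.991). The sign of that last value turned without control 2, to -0.08. High against normal RVSP was -0.20 ± 0.18 for this probe set and 0.03 ± 0.17 for the other.

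Aldh1a2 (1422789_at), the dehydrogenase that completes synthesis in mesenchyme and mesothelium, did not separate the groups. Control arrays read 1015 and 749, those with normal RVSP 949 and 601, and those with high RVSP 761 and 1038. Every group held 1 brighter and 1 dimmer array and overlapped the others, within a range of 1.73-fold over all 6 arrays. Log2 differences were -0.20 ± 0.27 for normal RVSP (limma adjusted p = 0.989), 0.03 ± 0.27 for high RVSP (limma adjusted p = 0.996) and 0.23 ± 0.27 between high and normal RVSP. Mesothelial markers, all 9 of which passed the filter, summed to 12790 to 14321 in controls, 14302 to 15458 in normal RVSP and 14388 to 16216 in high RVSP.

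Aldh1a3, the epithelial counterpart of Aldh1a2, was dim on all 3 of its probe sets. They read between 1.91 and 41.5, between 3.02 and 26.3, and between 15.1 and 72.3 over the 6 arrays, all below the filter. The brightest, 1448789_at, gave 48.6 and 30.6 in controls, 15.1 and 57.8 in normal RVSP and 72.3 and 51.1 in high RVSP. The 3 probe sets did not order the arrays alike, and with no filter applied no probe set of the array passed the adjusted test.

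Genes that act beside these enzymes on retinol and retinaldehyde were taken from a list of 20 gene symbols, of which 18 were on the array and 10 passed the filter. None passed the test in any comparison. Over all R899X mice 7 were above and 3 below control, with a median log2 difference of 0.02 against -0.00048 over all 12557 genes. Rdh11, a retinaldehyde and retinol oxidoreductase, read 480.2 and 484 for control, 641 and 641 for normal RVSP and 677 and 763 for high RVSP (1418760_at). All 4 R899X arrays of Rdh11 lay above both controls, at 0.48 ± 0.15 (limma adjusted p = 0.832). The other Rdh11 probe set, 1449209_a_at, read 430.1 and 523 in the controls and 555, 599, 584 and 717 in the R899X mice, and also did not overlap.

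Adh7, an alcohol dehydrogenase of epithelia that can oxidise retinol, read 99.2 and 40.1 in controls against 125, 109.7, 111 and 145 in the R899X mice, a difference of 0.78 ± 0.33 (limma adjusted p = 0.832). Its other probe set, 1421058_at, read 72.3 and 47.6 in the controls and 69.4 to 79.9 in the R899X mice and overlapped. Aldh1a1, the third retinaldehyde dehydrogenase and bright in lung, lay between 18869 and 22109 on all arrays, at -0.04 ± 0.13 over all R899X mice. Between high and normal RVSP, Aldh1a7 stood at -0.19 ± 0.18 and Adh1, an alcohol dehydrogenase, at -0.20 ± 0.15. Dhrs3, which turns retinaldehyde back to retinol, stood at -0.11 ± 0.17 over all R899X mice.

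Among the receptors, Rarb (1454906_at) lay above control by a similar amount in both R899X groups. Rarb intensities were 265 and 229 for control, 335 and 374 for normal RVSP and 418 and 321 for high RVSP. All 4 R899X arrays were above both controls, the nearest pair by 1.21-fold, and the R899X groups overlapped each other. Group means were 247 ± 25.3 (SD, n = 2), 354 ± 27.8 (SD, n = 2) and 369 ± 68.7 (SD, n = 2). The log2 difference was 0.49 ± 0.22 for normal RVSP (limma adjusted p = 0.987), 0.54 ± 0.22 for high RVSP (limma adjusted p = 0.857) and 0.52 ± 0.19 over all R899X mice (limma adjusted p = 0.832). High against normal RVSP was 0.05 ± 0.22, a value whose sign turned under centring of the arrays on their medians (-0.03). None of these passed the threshold of 0.05. Over the alternatives its adjusted p lay between 0.265 and 0.999 for all R899X mice. Among marker lists, those of platelets showed a like separation from control. All 6 were above control over all R899X mice, against 49.9% of all genes, with a median of 0.38 and none at 0. They summed to 3197 to 4395 in controls against 4523 to 6996 in R899X mice. All kept markers of smooth muscle and pericytes (10), ciliated cells (8), adipocytes (4) and B cells (4) were also above control. By sum, those lists overlapped the controls. Unlike Rarb, the platelet markers also all stood higher in high than in normal RVSP, with a median of 0.35. Their part in the Rarb values was not tested. Against control the Rarb difference stayed between 0.36 and 0.73 with any 1 array left out.

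Rarg, the receptor known for its part in skin, was read by 2 probe sets. Probe set 1419415_a_at gave 790.4 and 842 in the controls, 758 and 815 in normal RVSP and 933 and 893 in high RVSP. The high RVSP mice lay above all other arrays, by a log2 difference of 0.16 ± 0.16 from control (limma adjusted p = 0.922) and 0.21 ± 0.16 from normal RVSP (limma adjusted p = 0.9996). The probe set 1419416_a_at did not share this separation. It read 361 and 291 in the controls, 186 and 405 in normal RVSP and 525 and 263 in high RVSP, a 2.82-fold range with every group overlapping the others. Its differences of -0.22 ± 0.41 and 0.19 ± 0.41 from control changed sign without R899X normal RVSP 1 (0.31) and without R899X high RVSP 1 (-0.29).

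Rara, the receptor of widest expression, was read here by 1 probe set, 1450180_a_at, which fell below the filter. It gave 6.52 and 101 in the controls, 44.7 and 82.0 in normal RVSP and 103 and 76.3 in high RVSP. The lowest values were those of control 1 and R899X normal RVSP 1, the arrays that stood apart and had the highest beta-actin ratios, and the other 4 arrays lay between 76.3 and 103. The part of RNA quality in this order was not tested. Of the RXR partners, Rxra read 429 and 726 in the controls, 463 and 643 in normal RVSP and 513 and 518 in high RVSP, at -0.07 ± 0.24 over all R899X mice (1454773_at). Its probe set 1425762_a_at stood at 0.22 ± 0.29. Rxrb stood at 0.03 ± 0.18 and Rxrg was below the filter, between 13.3 and 97.9.

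Stra6 (1422723_at), the retinol receptor, was near the bottom of the scale. It read 7.94 and 6.58 in the controls, 12.7 and 14.9 in normal RVSP and 10.03 and 15.4 in high RVSP. All 4 R899X arrays were above both controls, but every value was far under the filter at 74.9.

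**Figure D3:**
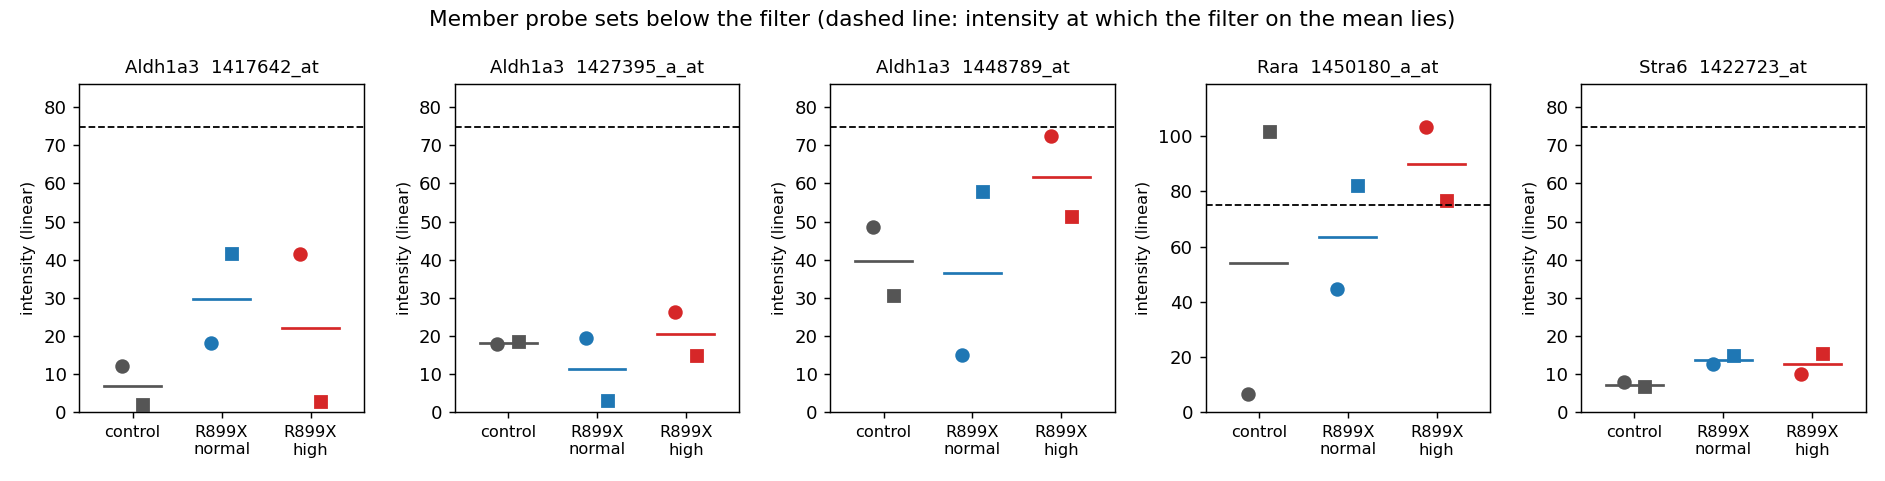
Intensity (linear scale, from 0) of the 5 member probe sets below the filter, by group, with 1 point per array, a line at the mean of the 2 arrays and a dashed line at the filter's intensity of 74.9. Stra6 stays between 6.58 and 15.4, and Rara is lowest in control 1 at 6.52 and in R899X normal RVSP 1 at 44.7.

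Rbp4, the plasma carrier that hands retinol to STRA6, read between 618 and 917 and stood at -0.01 ± 0.19 over all R899X mice. Ttr, which carries RBP4 in plasma, read 55.8 and 996 in the controls and 68.0, 144, 3.11 and 245 in the R899X mice, so that control 2 stood far above all other arrays; the difference was -1.57 ± 1.19. The other Ttr probe sets were also brightest in control 2. Lrp2, an endocytic receptor for the carrier, read between 400.5 and 608 on the 6 arrays. Fabp5, an intracellular carrier of retinoic acid, stood at 0.03 ± 0.20 over all R899X mice on its brighter probe set, 1416021_a_at. Its other probe set, 1416022_at, read 2935 and 2603 in controls against 4616, 3718, 3296 and 4137 in the R899X mice without overlap, at 0.50 ± 0.16 (limma adjusted p = 0.832). The carriers Rbp2, Rbp7, Crabp1 and Crabp2 were below the filter.

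Of the genes that store and release retinyl esters, Lrat, which forms the esters, read 1990 and 2443 in controls, 2370.5 and 1901 in normal RVSP and 1755 and 3974 in high RVSP, with high RVSP 2 far above the rest (1444487_at). Its other probe set, 1421345_at, was instead lowest in control 1, at 107 against 517 to 1168 elsewhere. Lpl, a lipase that can free retinol from esters, stood at 0.13 ± 0.14 for normal RVSP and -0.30 ± 0.14 for high RVSP (limma adjusted p = 0.857). Both high RVSP values of Lpl, 4076 and 4373, lay below all other arrays, which read 5170 or more. The other probe set of Lpl, 1431056_a_at, had the same order, at -0.25 ± 0.16 for high RVSP. Against control, high RVSP stood at -0.09 ± 0.19 for Dgat1, which can also form esters, and at 0.42 ± 0.40 for Lipe, a lipase.

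Counts over the members are read against all 27022 probe sets kept. With limma, 0 of the 6 member probe sets other than Cyp26b1 passed at a Benjamini-Hochberg adjusted p of 0.05 in any comparison, and 0% of all probe sets did. At an unadjusted limma p under 0.05, 1174 of all probe sets (4.34%) were counted for normal RVSP against control, 1527 (5.65%) for high RVSP against control, 707 (2.62%) for high against normal RVSP and 1601 (5.92%) for all R899X against control. Of those 6 member probe sets, 0, 1, 0 and 1 were below it in the same order, Rarb in both cases. An ordinary linear model also gave 0 adjusted calls in each comparison.

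By overlap alone, 3 of the 7 probe sets (Cyp26b1, Rarb and Rdh10 1426968_a_at), or 4 of all 12 with Stra6, had all 4 R899X arrays above both controls, against 7.52% of all probe sets kept, and 0 had them below, against 7.71%. All backgrounds here are over probe sets that passed the filter, so they match the counts of 7 and not those of 12. In normal RVSP against control 4 of 7 (6 of all 12) did not overlap and were higher (background 14.4%) and 0 were lower (background 15.1%). In high RVSP against control 4 of 7 (6 of all 12) were higher without overlap (background 19.1%) and 0 lower (background 18.2%). Between high and normal RVSP 1 was higher without overlap, Rarg 1419415_a_at (background 16.7%), and 2 were lower, Cyp26b1 and Rdh10 1460632_at (background 15.5%). Those comparisons share arrays, Cyp26b1 was chosen on one of them, and Rdh10 and Rarg each count with 2 probe sets, so the counts describe these members and support nothing further. Without Cyp26b1, the median log2 difference of the other 6 probe sets was 0.09 over all R899X mice, against -0.0020 over all probe sets. It was 0.09 for normal RVSP and 0.17 for high RVSP against control, against -0.00086 and -0.0042 over all probe sets.

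**Figure D4:**
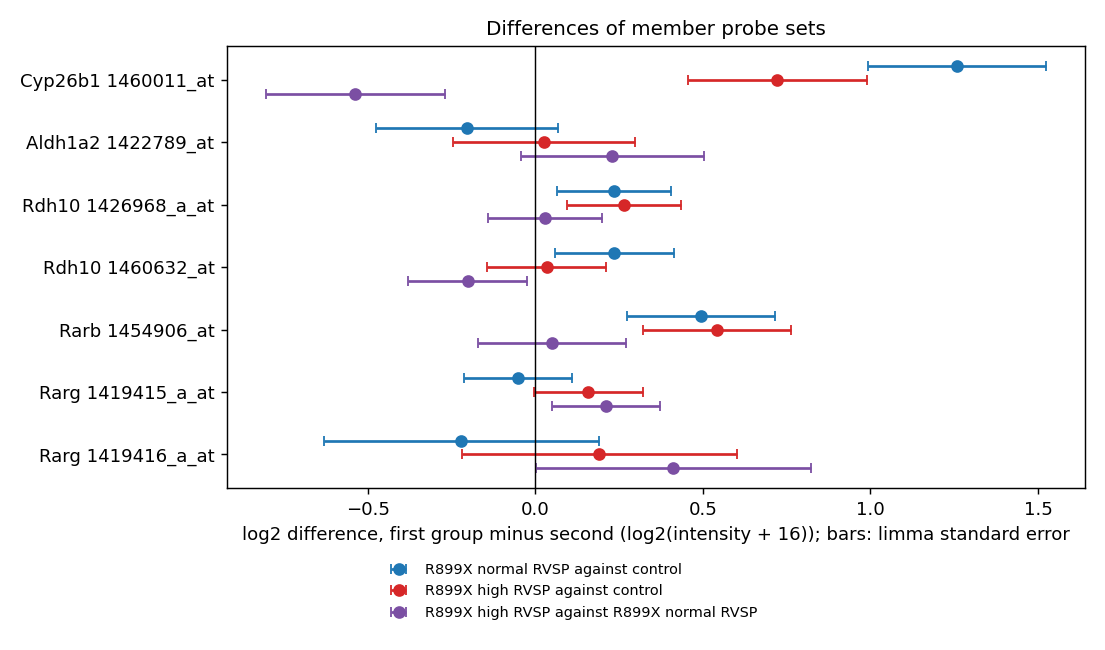
Log2 difference of each member probe set that passed the filter (x axis, first group minus second, bars are limma standard errors) for normal RVSP against control, high RVSP against control and high against normal RVSP. Cyp26b1 at 1.26 and 0.72 and Rarb at 0.49 and 0.54 lie to the right against control, and the 2 Rdh10 probe sets part in the high RVSP comparison at 0.26 and 0.03.

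The wider retinoid lists held 75 gene symbols beside the members, with some genes under more than 1 name. Of these symbols 65 were single symbols on the array and 48 passed the filter. Of the 48, 0 passed the test in any comparison. Over all R899X mice 22 were above control and 26 below, with a median of -0.03. By overlap, 2 of the 48 had all R899X arrays above both controls, Rdh11 and Adh7, and 1 had them below, Rarres2. These are 4.17% and 2.08% of the 48, against 7.52% and 7.71% of all probe sets kept, where a gene can count with several probe sets. Each gene was represented by its brightest probe set. Of 25 list genes with more than 1 probe set past the filter, 11 had probe sets that differed in sign over all R899X mice, so directions of single list genes depend on the probe set. Known targets of retinoic acid showed 9 of 22 genes above control and 13 below, with a median of -0.08. Rarres2, which encodes chemerin, read 7218 and 6620.3 for control, 6439 and 5134 for normal RVSP and 6129 and 6491 for high RVSP, at -0.20 ± 0.14 (limma adjusted p = 0.867) on probe set 1437902_s_at. Its probe sets 1428538_s_at and 1425091_at overlapped, at 0.03 ± 0.14 and -0.16 ± 0.23.

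Hox genes, which set position along the body axis, are classical targets of retinoic acid. Hoxb3 on its brighter probe set, 1456229_at, read 803 and 661 for control and 572 to 688 in the R899X mice, which overlapped. Its dimmer probe set, 1427605_at, read 208 and 242 for control against 142 to 171 in the R899X mice without overlap, at -0.47 ± 0.21 (limma adjusted p = 0.832). Over all R899X mice Hoxa5 stood at -0.24 ± 0.19 (-0.05 ± 0.16 on 1443803_x_at) and Hoxa2 at -0.27 ± 0.23, while Hoxa4 stood at 0.10 ± 0.22. Ror2, a Wnt receptor, stood at 0.60 ± 0.28 for high RVSP (limma adjusted p = 0.857).

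**Figure D5:**
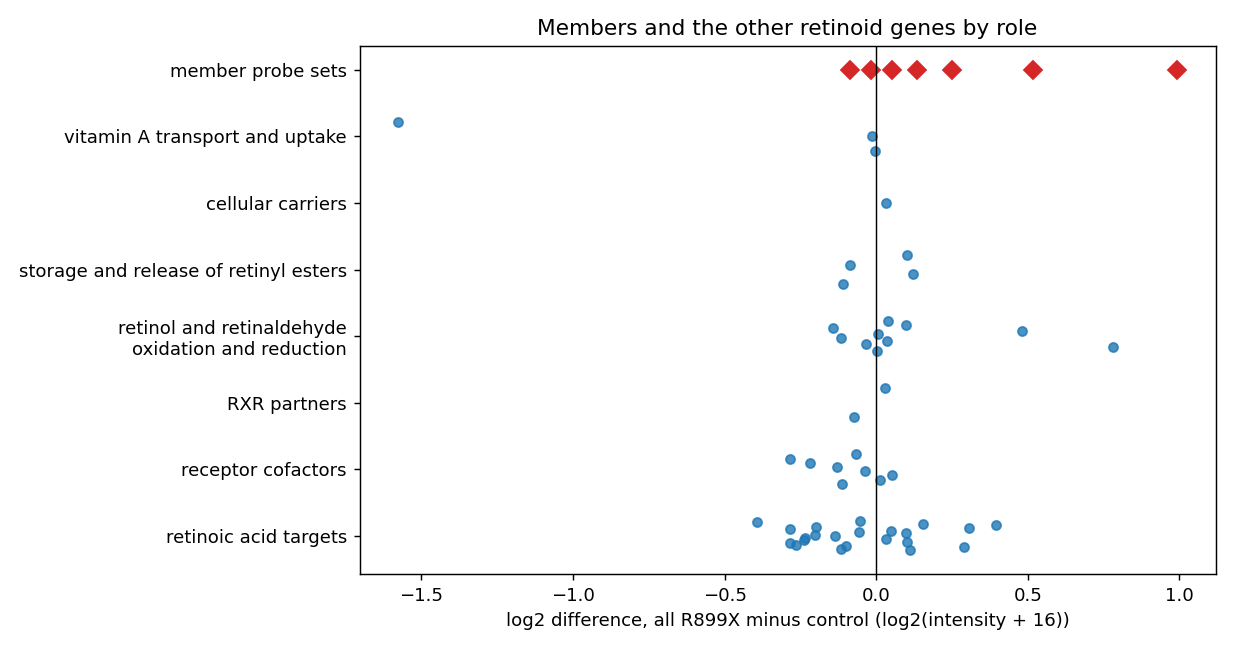
Log2 difference between all R899X mice and controls (x axis) of the 7 member probe sets (diamonds) and of 48 other retinoid genes grouped by role (circles, 1 probe set per gene, 2 genes shown under 2 roles). Cyp26b1 at 0.99 and Rarb at 0.52 are the members farthest right, Adh7 at 0.78 and Rdh11 at 0.48 lead the other enzymes, and the lone point at -1.57 is Ttr.

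Receptor cofactors showed 2 of 8 genes above control and 6 below, with a median of -0.09. Nrip1, a corepressor that is also a retinoic acid target, read 1380.1 and 1098 for control, 568 and 1259 for normal RVSP and 1207 and 1189 for high RVSP on its brightest probe set, 1449089_at. R899X normal RVSP 1, one of the arrays that stood apart, was far below the rest there, and the difference for normal RVSP was -0.53 ± 0.33 (limma adjusted p = 0.987). Other probe sets of Nrip1 did not order the groups alike: 1434384_at stood at 0.04 ± 0.16 for normal RVSP and 1454295_at at -1.29 ± 0.58. Over all R899X mice the coactivator Ncoa2 stood at -0.13 ± 0.13 on its brightest probe set, 1435233_at, and at -0.36 ± 0.22 on 1446827_at. On its probe sets 1435234_at and 1450458_at all R899X arrays lay above both controls, at 0.53 ± 0.21 and 0.24 ± 0.27. The coactivator Ncoa3 stood at -0.22 ± 0.16 on 1448027_at but at 0.15 ± 0.17 on 1422737_at, where the R899X arrays lay above both controls. Crebbp ranged from -0.11 ± 0.14 on its brightest probe set to 0.87 ± 0.44 on 1459804_at, and Nsd1 from -0.36 ± 0.24 on 1456916_at to 0.35 ± 0.34 on 1440972_at. The deacetylase Hdac3 stood at 0.05 ± 0.14.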

How the data were processed

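Per the labels, mice were given heparin, lungs were rinsed with saline, and RNA was purified from homogenate. The deposited values are intensities on a linear scale, 1 per probe set and array; how the authors computed them is not given in the sources used. Every array had a 2% trimmed mean of 500.0. Here log2(intensity + 16) was taken with no further scaling, since array medians spanned 0.126. After removal of 64 control probe sets, the 18015 lowest by mean (40%) were left out and 27022 kept. A model with a mean for each of the 3 groups (limma 3.58.1 in R 4.3.3, intensity trend, 3 residual and 5.06 prior degrees of freedom) was tested two-sided with Benjamini-Hochberg adjustment over the kept probe sets. On simulated data for high RVSP against control, it recovered 14.8% of 2-fold and 79.0% of 4-fold changes, with 5.40% of calls false. Most simulated 2-fold changes were thus missed. The simulated arrays varied independently, and none stood apart as control 1 and R899X normal RVSP 1 did, so recovery on the real arrays can differ. The number of arrays limits precision; replicate numbers follow accession order and pair nothing. Symbols are those of the platform annotation (34958 probe sets with 1, 932 with several, 9211 unnamed). A list gene is represented by its kept probe set of highest mean. Named list genes are the 3 of lowest p per list in each pairwise comparison; the other probe sets of such genes, and the genes below the filter, were singled out after their values were seen. Members and lists were chosen with earlier results of these data known. Alternatives covered pseudocount, filter, normalization, variance model, arrays fitted, arrays left out and a beta-actin covariate.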

Additional observations from a re-analysis of the deposited data

How the results depend on the processing

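No paired analysis was possible because the labels give no replicate numbers and name nothing that pairs mice. With 2 arrays a group, precision is limited by their number. The count of 0 probe sets passing (limma, all 4 comparisons) was also 0 with a pseudocount of 1 or 64, no filter, the lower 60% left out, quantile normalization, median centring, no intensity trend, an ordinary linear model and a beta-actin covariate. With only the arrays compared, 1 passed for high RVSP against control. In the order normal RVSP against control, high RVSP against control, high against normal RVSP and R899X together against control, leaving out 1 array gave 0 to 4, 0 to 3, 0 to 43 and 0 to 6. Leaving out both control 1 and R899X normal RVSP 1 gave 146, 328, 56 and 284; a group with 1 array is then assumed to vary like the others. In that fit control and normal RVSP each keep only 1 array, so the replicate spread comes from the high RVSP pair alone. Normal RVSP against control is then 1 mouse against 1 mouse. Those counts therefore cannot show differences between the groups, and their cause was not tested. Of 469 alternative values of the members, 32 turned sign. Another 9, all of Cyp26b1, moved by more than the replicate spread but kept direction. The remaining 428 kept direction too, and those of members other than Cyp26b1 also kept their side of the threshold.

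Signs turned as follows, in log2 differences. Under median centring, normal RVSP against control was 0.014 for Rarg 1419415_a_at, high against normal RVSP was -0.051 for Rdh10 1426968_a_at and -0.032 for Rarb, and R899X together was 0.010 for Rarg 1419416_a_at. Quantile normalization gave -0.0010 for Rarb between R899X groups. The beta-actin covariate gave 0.014 (normal RVSP) and 0.23 (R899X together) for Aldh1a2, and -0.0063 (R899X together) for Rarg 1419415_a_at. Without both arrays that stood apart, Rarg 1419416_a_at was 0.46 (normal RVSP), -0.12 (high against normal) and 0.40 (R899X together), and Rarb was -0.028 (high against normal). With 1 array left out, Rarg 1419416_a_at ranged from -0.75 to 0.31, -0.29 to 0.67, -0.12 to 0.94 and -0.28 to 0.25 in the order above. Aldh1a2 ranged from -0.52 to 0.12, -0.19 to 0.25, -0.092 to 0.55 and -0.30 to 0.13. Rdh10 1460632_at ranged from -0.076 to 0.15 for high RVSP against control. Between R899X groups, Rdh10 1426968_a_at ranged from -0.064 to 0.12 and Rarb from -0.13 to 0.23.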
